A study of Mus musculus with 4 samples.

Results

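GSK-J4 is a cell-permeable small molecule that inhibits JmjC histone demethylases, the enzymes that use iron and 2-oxoglutarate to remove methyl groups from histone lysines. It was designed against the demethylases of H3K27me3, a histone mark laid down by Polycomb repressive complex 2 on silent genes. L-ascorbic acid (AA) keeps iron in the reduced state and so acts as a cofactor of the same family of enzymes. The question addressed here was how 10 μM GSK-J4 altered gene expression in female mouse embryonic stem cells (ESCs) that also received 50 μg/ml AA. The library labelled AA+GSK-J4 was set against the library labelled AA+DMSO, in which DMSO is the vehicle of GSK-J4. Both were made from total RNA of the LF2 line (strain 129/J, cell type embryonic stem cells) after 24 hr of treatment. LF2 is 1 female line, and its cells were grown on fibroblast feeders and passaged without them before treatment. The other pair of the series, PBS+DMSO and PBS+GSK-J4, received the vehicle of AA and is given for comparison. Members were all genes with an FPKM of 1 or more in either library with AA, where FPKM is the number of fragments per kilobase of transcript, scaled to the mapped fragments of the library. They numbered 9191 of the 9936 gene names in the table, after 97 genes with a failed estimate were left out and 648 genes lay below 1 in both libraries.

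There is 1 library a condition, so every difference below compares a pair of libraries, has no replicate error and carries no p-value. Changes are given as log2 ratios, log2((FPKM with GSK-J4 + 1)/(FPKM with DMSO + 1)), which understate the change of weakly expressed genes. Counts of genes past 2-fold refer to this ratio, at least 1 or at most -1. The plain FPKM of a gene not counted can therefore differ by more than 2-fold. FPKM summed to 343108 in AA+DMSO against 271801 with GSK-J4 over the 9839 genes with a value. Values of 1 or more were listed for 8658 genes in AA+DMSO and for 8952 in AA+GSK-J4. The tables hold no read counts, and the depth of the libraries is unknown. The steps of the lowest values gave 2 candidates for the FPKM of 1 read in AA+GSK-J4 relative to AA+DMSO, 2.27 and 1.51, which matched 8.79% and 6.28% of 478 coding sequence groups and so did not settle the relative depth. The cell type was checked against its markers. Of 24 naive pluripotency genes with a value, 23 were expressed, led by *Pou5f1* at 799.9 FPKM in AA+DMSO against 479.7 with GSK-J4. The other one, *Zfp42* (Rex1), was listed at 0.0167 and 0 FPKM and has a failed estimate in the table without AA, so its values are doubtful. The summed FPKM of these genes was 3097 and 1852. Of the 7 fibroblast markers with a value, *Sparc* stood at 96.9 and 99.4 FPKM, while the collagen genes *Col1a1* and *Col1a2* stayed between 2.11 and 4.19. The summed FPKM of these 7 markers was 121 and 133, and the other 3 with the largest ratios were *Acta2* (12 and 17.8, log2 ratio 0.53), *Col5a1* (1.65 and 2.66, 0.47) and *Twist1* (3.04 and 4.52, 0.45). The part that fibroblast RNA plays in the results was not tested, and fewer cells of a type cannot be told apart from less RNA per cell.

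Over all members, the median log2 ratio was -0.16, and 37.8% of genes had a ratio above 0. Past 2-fold, 379 genes were higher with GSK-J4 (4.12% of the 9191) and 313 were lower (3.41%). This balance depends on how the libraries are scaled to each other. With each library divided by its upper quartile there were 548 higher and 120 lower genes, with each scaled to the same total 621 and 99, with the ratios centred on their median 516 and 154, and with each ratio centred on the median of its expression decile 400 and 207. The median itself moved to 0.066 and 0.14 under the first 2 of these scalings. Gene lists are therefore given below by their median log2 ratio less the median of all members, called their offset. Most of the higher genes were weakly expressed. The median FPKM of the 379 higher genes was 1.45 in AA+DMSO and 5.66 with GSK-J4, and 158 of them were below 1 in AA+DMSO. The 533 members below 1 in AA+DMSO entered only through the library with GSK-J4, so the filter fixes their ratios above 0. The 313 lower genes had a median FPKM of 14.4 and 5.83. Of these, 58 were below 1 with GSK-J4 and entered only through AA+DMSO. Among the 3914 genes that reached 10 FPKM in both libraries, 43 (1.1%) passed 2-fold upward and 123 (3.14%) downward. As a yardstick for this level, the 2 libraries that received DMSO, with and without AA, differed past 2-fold in 3 of 4279 such genes (0.0701%). The standard deviation of their log2 ratio over genes was 0.14, against 0.43 for GSK-J4 with AA. That pair differs in AA and comes from separate tables, so it is no replicate.

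**Figure D1:**
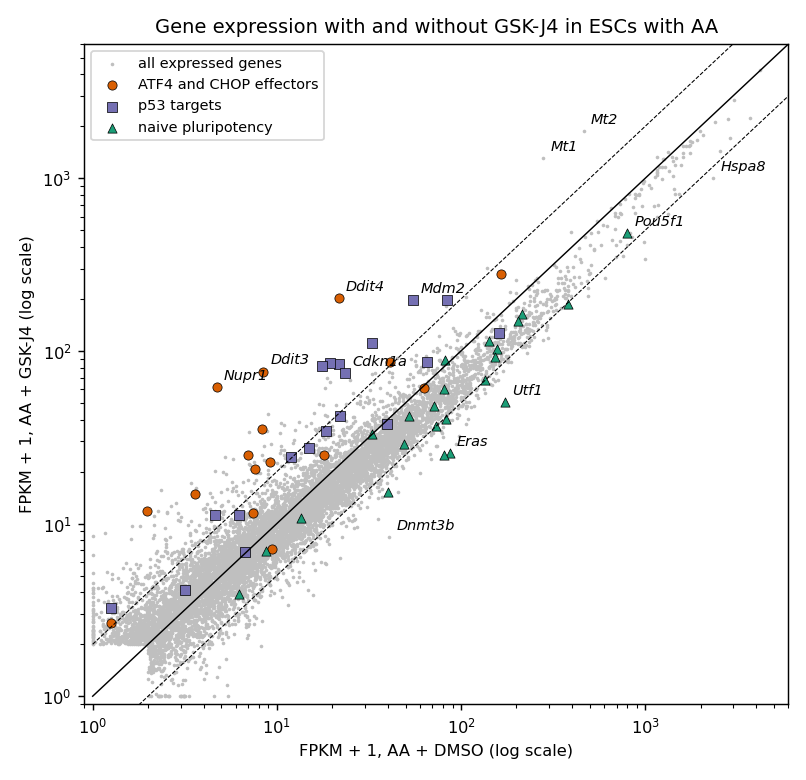
FPKM + 1 of each member in AA+DMSO (horizontal) and AA+GSK-J4 (vertical), both on log scales, 1 point a gene. The solid line marks equal values and the dashed lines a 2-fold ratio, and the genes of 3 lists are drawn in colour. ATF4 and CHOP effectors and p53 targets lie mostly above the solid line and naive pluripotency genes mostly below it.

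The ratio moved with expression level. In the lowest decile of mean FPKM (0.507 to 1.52) the median log2 ratio was 0.24, with 90 of 920 genes past 2-fold upward and 34 downward. Members below 1 FPKM in a library entered only through the other library, so the filter sets the sign of their ratio, and this bears on the lowest decile. In the fifth decile (6.13 to 9.03) the median was -0.07. In the highest decile (57.1 to 4224) it was -0.54, with 10 higher and 69 lower genes among 919. Abundant transcripts were thus lower with GSK-J4 than weak ones, and the median of a gene's own decile is given beside a result where it matters. The cause of this trend was not tested.

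**Figure D2:**
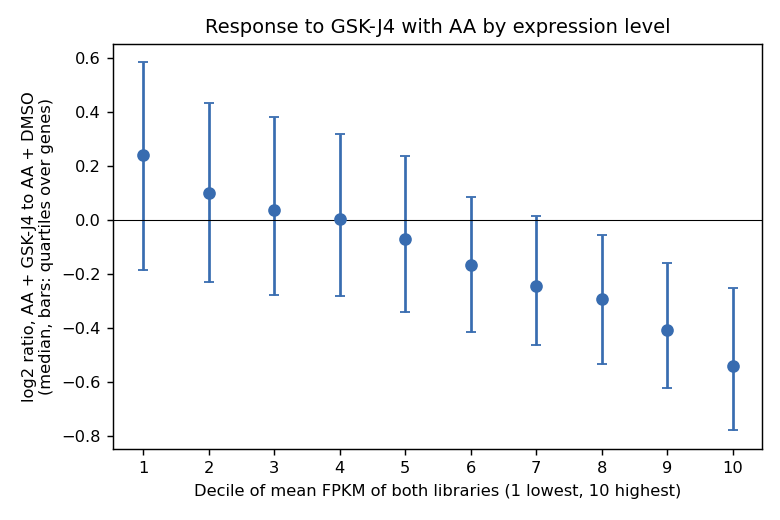
Median log2 ratio of AA+GSK-J4 to AA+DMSO (points) and its quartiles over genes (bars) in each decile of mean FPKM, from the lowest to the highest expression. The medians descend from 0.24 in the first decile to -0.54 in the tenth.

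The 3 genes with the largest ratios belonged to the integrated stress response. In this pathway, kinases that sense amino acid shortage, misfolded protein or other stress phosphorylate the translation factor eIF2α, general translation slows, and the transcription factor ATF4 is translated. ATF4 and its partner CHOP, the product of *Ddit3*, then bind C/EBP-ATF response elements before genes of amino acid supply and of the stress program. The searched letters of this element were TGATGNAAN on either strand. They were found in the promoter, 250 bases before to 50 after the transcript start in RefSeq (GRCm38.p6), of 7 of the 14 ATF4 and CHOP effectors that have one (50.0%), against 167 of 7069 members with a promoter (2.36%). The list holds genes taken as targets of ATF4 and CHOP. Its higher share could follow from that choice and is no result about GSK-J4. The stretches before the transcript start are shown for 6 of the 7 matching effectors and for the asparagine synthetase gene *Asns*, because they let the element be compared between genes of this group. Capitals mark the match, and each sequence is written along the strand of its gene.
*Nupr1* (chr7:126625543-126625611, minus strand): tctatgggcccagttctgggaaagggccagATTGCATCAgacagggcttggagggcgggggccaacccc
*Atf3* (chr1:191183406-191183474, minus strand): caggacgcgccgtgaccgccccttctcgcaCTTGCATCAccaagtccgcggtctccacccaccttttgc
*Chac1* (chr2:119351018-119351086, plus strand): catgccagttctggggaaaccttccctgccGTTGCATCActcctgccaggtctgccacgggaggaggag
*Pck2* (chr14:55540132-55540200, plus strand): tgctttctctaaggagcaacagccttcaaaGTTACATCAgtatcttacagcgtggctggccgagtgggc
*Jdp2* (chr12:85599353-85599415, plus strand): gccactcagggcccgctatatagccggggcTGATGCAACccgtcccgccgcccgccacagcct
*Vldlr* (chr19:27216789-27216857, plus strand): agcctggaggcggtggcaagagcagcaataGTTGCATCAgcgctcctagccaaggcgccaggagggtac
*Asns* (chr6:7693210-7693262, minus strand): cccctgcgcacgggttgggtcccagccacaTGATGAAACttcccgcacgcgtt

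The last base of the match lay 103 bases before the transcript start in both *Nupr1* and *Atf3*, 186 in *Chac1*, 96 in *Pck2*, 25 in *Jdp2*, 193 in *Vldlr* and 15 in *Asns*. In the seventh effector, *Trib3*, the match began 14 bases into the transcript and is not printed. *Jdp2* and *Vldlr* have other promoters without a match. These letters were not found in the 300-base windows of *Ddit4*, *Ddit3*, *Stc2*, *Sesn2*, *Cebpg*, *Ppp1r15a* and *Atf4*. A match describes the letters only, and binding was not measured.

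Of the 16 ATF4 and CHOP effectors expressed, 11 were past 2-fold higher with GSK-J4 and none was lower by that much, against 4.12% and 3.41% of all members. Their median log2 ratio was 1.38, an offset of 1.54. *Nupr1*, which encodes a small chromatin protein of the stress response (chromosome 7, 126623210 to 126625789), had the largest ratio of any member. Its FPKM was 3.73 in AA+DMSO against 60.7 with GSK-J4, a 16.3-fold difference and a log2 ratio of 3.71. *Ddit4* (chromosome 10, 59949666 to 59951925), which encodes the mTORC1 inhibitor REDD1, stood at 20.7 and 201 FPKM (log2 ratio 3.22). *Ddit3*, the CHOP gene (chromosome 10, 127290722 to 127311788), stood at 7.45 and 75 FPKM (3.17). Each of these genes was higher by more than 9-fold in the library with GSK-J4. The transcription factor gene *Atf3* had 0.961 and 10.8 FPKM, a log2 ratio of 2.59. *Trib3*, a pseudokinase that restrains ATF4 and AKT, had 7.34 and 34.3 FPKM (2.08). *Chac1*, which encodes an enzyme that breaks down glutathione, had 5.94 and 24.1 FPKM (1.85). These 3 genes were also more than 4-fold higher with GSK-J4. The secreted glycoprotein gene *Stc2* had 2.58 and 13.8 FPKM, and *Sesn2*, an inhibitor of mTORC1 that senses leucine, had a log2 ratio of 1.08, so the list spans genes of low and of moderate level. *Atf4* itself was at 164 FPKM in AA+DMSO against 279 with GSK-J4, a log2 ratio of 0.77 against a median of -0.54 in its decile. *Ppp1r15a*, which encodes the GADD34 subunit that dephosphorylates eIF2α, was at 17.0 and 24.0 FPKM (0.48). *Eif4ebp1* and *Ndrg1* had ratios below 0, at -0.04 and -0.40.

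The genes of amino acid supply, many of them ATF4 targets, had smaller ratios. Of 15 genes of amino acid and one-carbon synthesis, 4 were at least 2-fold higher (26.7%, against 4.12% of all members) and none lower. The list had a median log2 ratio of 0.63 and an offset of 0.79. *Cth*, which makes cysteine from cystathionine, was at 23.9 FPKM in AA+DMSO against 67.0 with GSK-J4 (1.45), and *Asns* at 33.1 and 73.1 (1.12). *Aldh18a1*, of proline synthesis, was at 1.05 and 4.61 FPKM (1.45), and the mitochondrial folate enzyme gene *Aldh1l2* at 0.696 and 3.03 (1.25). The serine synthesis genes had lower ratios, with *Phgdh* at 0.63 and *Psat1* at 0.20, and the cytosolic *Shmt1* was at -0.60. All 11 expressed amino acid transporters had a ratio above 0 and above the median of all members. Of these, 2 (18.2%) were at least 2-fold higher, the glycine transporter *Slc6a9* (1.15 and 8.82 FPKM, log2 ratio 2.19) and the neutral amino acid transporter *Slc1a4* (4.71 and 14.4 FPKM, 1.43). *Slc7a5* and *Slc3a2*, which form the large neutral amino acid transporter, had ratios of 0.40 and 0.37, and the glutamine transporters *Slc38a7* and *Slc1a5* of 0.86 and 0.83. The cytosolic tRNA synthetases divided, with 9 of 18 above 0 and a median of -0.04. *Cars*, the cysteine enzyme, was at 18.3 and 38 FPKM (1.02) and was the only one past 2-fold, while *Kars*, the lysine enzyme, was at 226 and 119 FPKM (-0.92), followed by *Rars* (-0.74) and *Vars* (-0.73).

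Targets of the tumour suppressor p53 were the other list with a median ratio above 2-fold among those of more than 4 expressed genes. p53 is a transcription factor stabilised by DNA damage and other stress, and its targets arrest the cell cycle, repair DNA and promote cell death. Of 19 expressed targets, 10 were at least 2-fold higher (52.6%, against 4.12% of all members) and none was lower by that much. In all, 17 had a ratio above 0, and the list had a median of 1.03 and an offset of 1.18. *Plk2*, which encodes a polo-like kinase, stood at 16.6 FPKM in AA+DMSO against 80.6 with GSK-J4 (2.22). *Perp*, a membrane protein gene of p53-dependent apoptosis, stood at 18.5 and 84.2 FPKM (2.12). *Mdm2*, the ubiquitin ligase that degrades p53 (chromosome 10, 117688859 to 117710762), stood at 54.1 and 195 FPKM (1.83). *Cdkn1a*, the p21 inhibitor of cyclin-dependent kinases (chromosome 17, 29090991 to 29100720), stood at 22.5 and 73.6 FPKM (1.67). *Btg2* and *Trp53inp1* also belonged to the 10 largest ratios among genes of at least 10 FPKM in both libraries, at 1.94 and 1.76. *Bax*, which permeabilises mitochondria, was at 159.6 and 125 FPKM, a ratio of -0.35 above its decile median of -0.54. In the BCL2 family as a whole, 1 of 14 genes (7.14%, against 4.12% of all members) passed 2-fold upward, *Hrk* at 0.301 and 2.49 FPKM (1.42). The death-promoting p53 targets *Bbc3* (PUMA) and *Pmaip1* (NOXA) had ratios of 0.87 and 0.85, and *Bak1*, a partner of *Bax*, of -0.64. The offset of the BCL2 family was 0.04.

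**Figure D3:**
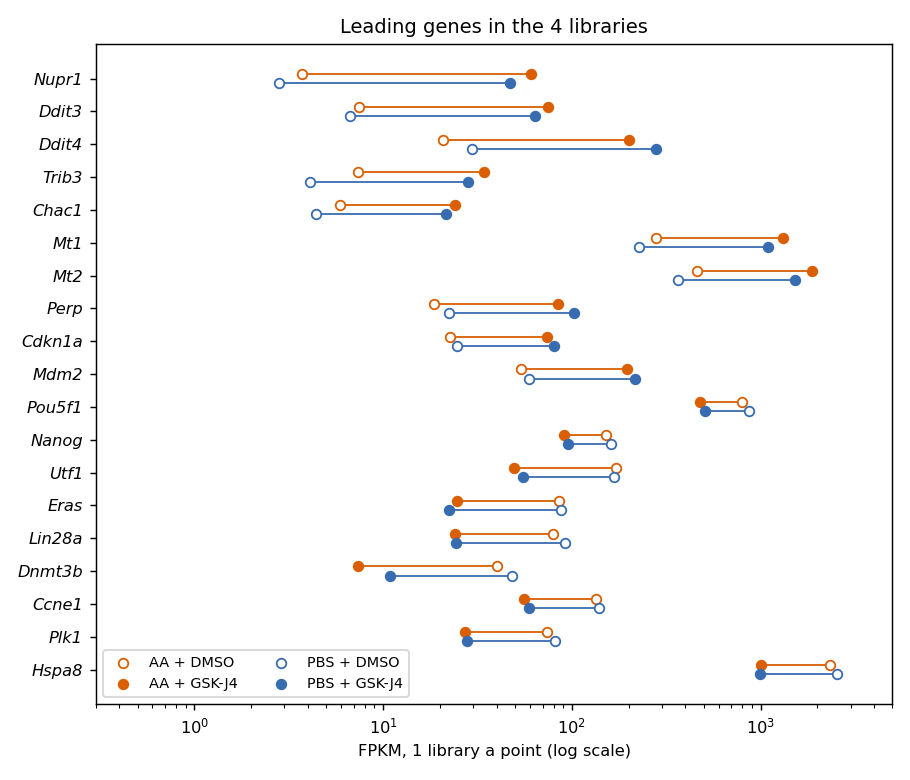
FPKM on a log scale of 19 genes described in the text, 1 library a point, with AA in orange and without AA in blue. Open points are DMSO and filled points GSK-J4, and in each gene both filled points lie on the same side of their open points.

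The metallothionein genes *Mt1* and *Mt2*, which encode small proteins that bind zinc and copper, were the most abundant of the higher genes. *Mt1* (chromosome 8, 94178995 to 94180329) was at 279 FPKM in AA+DMSO against 1309 with GSK-J4, a log2 ratio of 2.23. *Mt2* lies beside it (94172462 to 94173587) and was at 462 and 1877 FPKM (2.02). As close paralogs, they may share reads. The zinc exporter gene *Slc30a1*, another zinc-responsive gene, was at 7.35 and 14 FPKM (0.85), and *Mtf1*, the transcription factor for these genes, at 2.54 and 2.07 (-0.20).

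Other stress programs had ratios of smaller size. None of 15 expressed targets of NRF2, the factor of the oxidative stress response, passed 2-fold in either direction, with a range from -0.60 to 0.39 and an offset of 0.13. *Srxn1* was at 33.0 and 43.4 FPKM (0.39) and *Nqo1* at 36.6 and 39.4 (0.11), while the lowest were *Gsta4* (-0.60), the thioredoxin gene *Txn1* (-0.44) and the peroxiredoxin gene *Prdx1* (-0.39). None of 20 genes for endoplasmic reticulum chaperones and the unfolded protein response passed it either. Their largest ratio was 0.98 in *Herpud1*, a gene of protein degradation at the endoplasmic reticulum that ATF4 also activates, with 10.5 and 21.8 FPKM, followed by the oxidase gene *Ero1l* (0.71) and *Sel1l* (0.65). The chaperone gene *Hspa5* (BiP) was at 208 and 135 FPKM, a ratio of -0.62. The heat shock chaperones lay lower, with 2 of 11 at least 2-fold lower (18.2%, against 3.41% of all members). Their offset was -0.57, of which -0.18 was left after the median of each gene's decile was subtracted. *Hspa8* was at 2336 and 1001 FPKM (-1.22), *Hspd1* at 757 and 354 (-1.10), *Hsph1* at 63.2 and 32.3 (-0.95) and *Dnaja1* at 109 and 59.7 (-0.86). *Hspa8* has many processed copies in the genome, so its value is uncertain where reads were split. Among 18 autophagy and lysosome genes, 14 had a ratio above 0 (offset 0.29). The lysosomal protease gene *Ctsd* was at 137 and 301 FPKM (1.13), the autophagosome gene *Wipi1* at 1.69 and 4.93 (1.14) and the receptor gene *Sqstm1* at 105 and 203 (0.94). *Tfeb*, a transcription factor for lysosomal genes, was at 24.9 and 10.2 FPKM (-1.21).

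**Figure D4:**
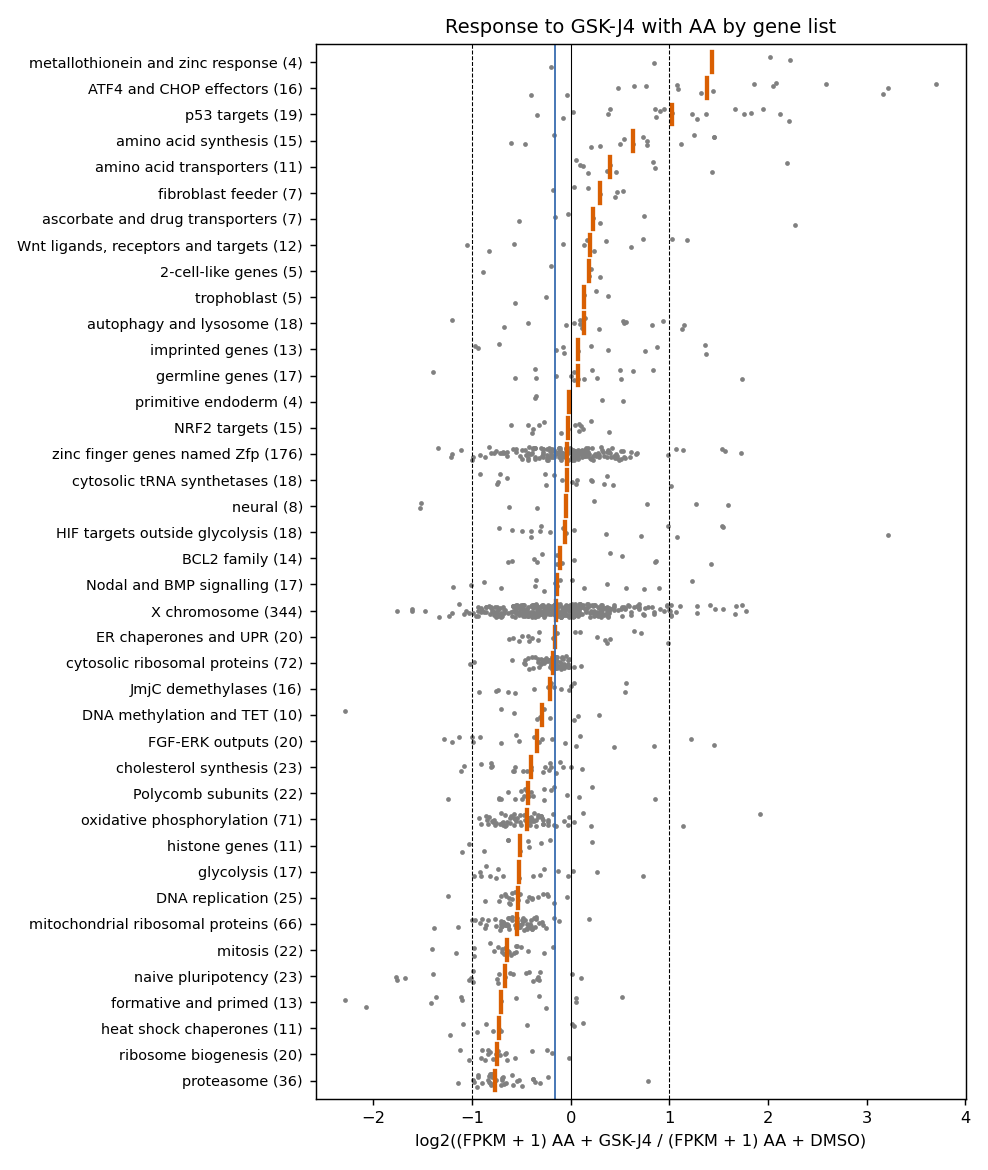
Log2 ratio of AA+GSK-J4 to AA+DMSO for the expressed members of each gene list with at least 4 of them, lists added later left out (grey points, numbers in brackets), with the median of the list (orange bar). The blue line marks the median of all members, -0.16, and the dashed lines a 2-fold ratio. Metallothionein genes, ATF4 and CHOP effectors and p53 targets lie at the top of these lists, and the proteasome and ribosome biogenesis at the bottom.

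Pluripotency genes were lower with GSK-J4. The naive state of ESCs is held by a network around *Pou5f1* (Oct4), *Nanog*, *Sox2*, *Esrrb* and the Klf factors. Of 23 expressed naive genes, 6 were at least 2-fold lower (26.1%, against 3.41% of all members) and none was higher by that much. The ratios of 21 lay below the median of all members. The 23 genes had a median log2 ratio of -0.67, an offset of -0.51. They are abundant genes, and after subtraction of each gene's decile median -0.19 remained. *Utf1*, a chromatin factor of undifferentiated cells (chromosome 7, 139943743 to 139945121), was at 172 FPKM in AA+DMSO against 49.6 with GSK-J4, a log2 ratio of -1.77. *Eras*, an ESC-specific Ras gene on the X chromosome (7924283 to 7928609), was at 85.9 and 24.7 FPKM (-1.76). *Lin28a*, which blocks let-7 miRNA maturation (chromosome 4, 134003199 to 134018893), was at 79.6 and 24.1 FPKM (-1.68). These 3 are among the 10 lowest ratios of genes with at least 10 FPKM in both libraries. *Dppa3* (Stella) was at 39.3 and 14.3 FPKM (-1.39), *Nr0b1* at 81.4 and 39.4 (-1.03) and the Nodal co-receptor gene *Tdgf1* at 378 and 187 (-1.01). The central factors had smaller ratios. *Nanog* was at 151 and 90.9 FPKM (-0.73) and *Pou5f1* at -0.74, both near the median of -0.54 of their decile. *Sox2* (-0.39), *Esrrb* (-0.32), *Klf2* (-0.43) and *Klf5* (0.11, 81.2 and 87.4 FPKM) lay above that decile median. *Klf4* (-0.32) and *Tfcp2l1* (0.01) lay above the -0.41 of their own. *Prdm14* was at 7.77 and 5.93 FPKM (-0.34) and *Tcl1* at 70.8 and 47.0 (-0.58).

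Markers of the formative and primed states, through which ESCs leave naive pluripotency, were lower as well. Of 13 expressed, 6 were at least 2-fold lower (46.2%, against 3.41% of all members) and none higher. The list had an offset of -0.55 that stayed at -0.48 against the decile medians. *Dnmt3b*, a de novo DNA methyltransferase (chromosome 2, 153649467 to 153687742), was at 39.9 FPKM in AA+DMSO against 7.38 with GSK-J4, a log2 ratio of -2.29 and the second lowest of all members. *Fgf15* was at 7.20 and 0.948 FPKM (-2.07), *Otx2* at 12.2 and 3.93 (-1.42), *Zic2* at 5.76 and 1.62 (-1.37), *Zic5* at 3.78 and 1.21 (-1.11) and *Tcf15* at 35.4 and 15.9 (-1.10). The medians of the naive and of the primed list thus both lay below that of all members in the same library. Several factors of the naive network, such as *Esrrb* and the Klf genes named above, nevertheless lay above their decile medians. Outputs of FGF-ERK signalling, which drives the exit from the naive state, were mixed. Of 20 genes, 4 passed 2-fold downward (20%, against 3.41% of all members) and 2 upward (10%, against 4.12%). The lower ones were *Etv1* (8.60 and 2.94 FPKM, -1.29), *Myc* (12.8 and 5.0, -1.20), *Ccnd1* (41.0 and 18.2, -1.13) and *Dusp6* (13.8 and 6.39, -1.0). The higher ones were the immediate early genes *Fosl1* (0.693 and 3.63 FPKM, 1.45) and *Fos* (0.662 and 2.88, 1.22). Another ligand of this family, *Fgf17*, was at 13.7 and 3.12 FPKM (-1.84), while *Fgf4* was at 72.0 and 35.6 (-0.99).

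Among the Nodal and BMP genes, 1 of 17 passed 2-fold upward (5.88%, against 4.12% of all members) and 2 downward (11.8%, against 3.41%). The ligand gene *Nodal* (chromosome 10, 61418228 to 61425333) was at 39.5 and 74.5 FPKM (0.90), whereas its co-receptor *Tdgf1* was lower, as above. The ligand *Bmp4* was at 15.0 and 6.04 FPKM (-1.19), and *Bmp7* at 0.565 and 2.66 (1.23). Of 12 Wnt genes, the ligand *Wnt3* was at 0.139 and 1.58 FPKM (1.18) and the receptor *Fzd5* at 14.2 and 6.31 (-1.05). *Wnt9a* was at 0.287 and 1.63 FPKM (1.03) and *Fzd2* at 2.96 and 1.23 (-0.83). Markers of differentiated lineages stayed low or divided. *Neurod1*, a proneural factor, was at 3.10 and 11.3 FPKM (1.59) and *Nkx2-2* at 0.276 and 2.07 (1.27), but *Gbx2* was at 9.68 and 2.73 (-1.52) and *Pou4f2* at 6.53 and 1.62 (-1.52). The summed FPKM of the 10 neural markers with a value was 136 in AA+DMSO against 96.4 with GSK-J4, most of it *Tubb3* (103 and 66.7). The 6 mesoderm markers with a value summed to 4.03 and 9.43 FPKM, the 4 of primitive endoderm to 10.3 and 12.2 and the 6 of trophoblast to 28 and 25.7. Of these, *Mesp2* was at 1.64 and 3.32 FPKM (0.71), *Eomes* at 1.5 and 2.06 (0.29), *Col4a2* at 2.42 and 3.95 (0.53), *Col4a1* at 4.90 and 6.36 (0.32), *Lama1* at 1.85 and 1.21 (-0.36) and *Sox7* at 1.17 and 0.697 (-0.35). The trophoblast genes *Esx1*, *Ascl2*, *Krt18* and *Tfap2c* had ratios of -0.57, 0.38, 0.26 and -0.25. *Hoxc13*, a homeobox gene, was at 1.30 and 5.06 FPKM (1.4).

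The JmjC genes, a family to which the demethylases inhibited by GSK-J4 belong, had a median ratio near that of all members. The genes of the Polycomb complexes, which write H3K27me3 among other marks, lay below it. *Kdm6a* and *Kdm6b*, which encode the demethylases of H3K27me3, were not analysed here. None of 16 expressed JmjC genes passed 2-fold, and their offset was -0.05. The range ran from -0.93 in *Kdm4c* (18.1 and 9.03 FPKM) to 0.56 in *Kdm5a* (3.84 and 6.14 FPKM). *Kdm2b* was at -0.76, *Kdm5b* at -0.20, *Kdm5c* at -0.23, *Kdm3a* at -0.21, *Kdm2a* at -0.02 and *Mina* at -0.64. *Jmjd4* was at -0.73 with AA (3.12 and 1.48 FPKM) and at 0.69 without (0.650 and 1.65). Of 22 Polycomb genes, 18 lay below the median of all members (offset -0.28, and -0.15 against the decile medians). *Ezh2*, the methyltransferase, was at 63.8 and 38.1 FPKM (-0.73), its partner *Eed* at 67.3 and 40.2 (-0.73), both against a decile median of -0.41, and *Suz12* at 56.0 and 46.2 (-0.27). *Phc2* was the only one past 2-fold (4.55%, against 3.41% of all members), at 5.90 and 1.92 FPKM (-1.24), although its ratio without AA was 0.17. Its paralog *Phc3* was at 0.181 and 1.14 FPKM, more than 2-fold apart in plain FPKM but at 0.86 with the pseudocount. Among 10 genes of DNA methylation and TET, *Dnmt3b* was the only one past 2-fold with AA (10%, against 3.41% of all members). Without AA, 4 of 10 were lower by that much, against 3.57% of all genes there. *Dnmt1* was at 83.9 and 67.6 FPKM (-0.31), *Dnmt3a* at 3.45 and 2.69 (-0.27), its cofactor *Dnmt3l* at 47.1 and 28.4 (-0.71), *Tet3* at 1.18 and 0.891 (-0.21) and the glycosylase gene *Tdg* at 50.5 and 33.4 (-0.58). *Mbd3* was at -0.34 with AA and -1.14 without. Few genes whose silencing depends on DNA methylation or imprinting passed 2-fold. Of 17 germline genes, *Taf7l* was higher by that much (1.46 and 7.17 FPKM, 1.73) and *Dppa3* lower. This is 5.88% each way, near the 4.12% and 3.41% of all members. Of 13 imprinted genes, *Slc22a18* (0.557 and 3.03 FPKM, 1.37) and *Grb10* (3.15 and 9.63 FPKM, 1.36) were higher (15.4%, against 4.12% of all members). None of the imprinted genes was lower by that much. The meiotic gene *Hormad1* was at 8.88 and 16.6 FPKM (0.83), *Tex101* at 0.328 and 1.05 (0.63), *Nnat* at 2.09 and 0.578 (-0.97) and *Mest* at 89.4 and 46.0 (-0.94). None of 5 expressed 2-cell-like genes passed 2-fold, with *Eif1a* (78.3 and 41.8 FPKM, -0.89), a general translation factor gene, the farthest from 0 and *Sp110*, *Tcstv3* and *Tdpoz4* between -0.20 and 0.30. Of 11 histone genes *H2afz* was at 1324 and 616 FPKM (-1.10) and *Hist4h4* at 2.34 and 0.634 (-1.03), and *Hist1h4d* (-0.88) and *H1fx* (-0.64) followed. The Zfp genes, 176 of them, had 5 past 2-fold in each direction (2.84%, against 4.12% upward and 3.41% downward of all members), with *Zfp365* (7.50 and 27.2 FPKM, 1.73), *Zfp750* (2.30 and 8.75, 1.56) and *Zfp131* (12.2 and 4.22, -1.34), while *Zfp408* was listed at 0 and at 1.90.

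X-linked genes are of interest in these female cells because both X chromosomes are active in ESCs. Of 344 expressed X-linked genes, 15 passed 2-fold upward and 11 downward, which is 4.36% and 3.20%, near the 4.12% and 3.41% of all members. The offset of the X-linked genes was 0.01. *Eif2s3x* was at 247 and 155 FPKM (-0.67), *Zfx* at 9.42 and 5.08 (-0.78), *Hdac6* at 65.4 and 76.8 (0.23) and *Rlim* at 7.52 and 9.98 (0.37). The lowest X-linked ratios after *Eras* were those of *Naa10* (96.8 and 31.0 FPKM, -1.61) and *Ldoc1* (7.30 and 1.72, -1.61). The highest were *Armcx5* (0.180 and 3.04 FPKM, 1.77), whose ratio without AA was -1.08, *Taf7l* (1.73) and *Itm2a* (1.51 and 6.99 FPKM, 1.67).

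Genes of growth and division were lower in a narrow range. No DNA replication gene of 25 had a ratio above 0, and the list had an offset of -0.38, or -0.11 against the decile medians. *Ccne1*, cyclin E1, was at 134 FPKM in AA+DMSO against 55.7 with GSK-J4 (-1.25) and was the only one past 2-fold (4%, against 3.41% of all members). *Pcna* was at 154 and 92.5 FPKM (-0.73), the helicase subunit gene *Mcm6* at 184 and 112 (-0.71) and *Gins2* at 63.8 and 34.5 (-0.87). All 22 mitosis genes were below the median of all members (offset -0.49, and -0.23 against the decile medians). The mitotic kinase gene *Plk1* was at 73.5 and 27.2 FPKM (-1.40), the centromeric histone gene *Cenpa* at 22.0 and 9.25 (-1.17), *Aurka* at 71.4 and 35.6 (-0.99) and *Cdk1* at 49.6 and 24.5 (-0.99). Ribosome biogenesis had an offset of -0.59, with *Nolc1* at 148 and 67.5 FPKM (-1.12), *Bop1* at 67.7 and 32.5 (-1.03) and *Npm1*, which has processed copies in the genome, at 3706 and 2226 (-0.73). *Nop16* and *Nop2* were at -0.91 and -0.89. The 36 proteasome genes had the lowest offset of the 42 lists, -0.61, with 35 of them below the median of all members. Of them, 1 was past 2-fold (2.78%, against 3.41% of all members), *Psmd3* at 122 and 54.7 FPKM (-1.14). *Psmd7*, *Psmc4* and *Psmb10* were at -0.99, -0.98 and -0.95. The exception was the immunoproteasome subunit *Psmb9* at 0.876 and 2.24 FPKM (0.79), whose locus overlaps that of *Tap1*. For the proteasome -0.25 was left against the decile medians, and for ribosome biogenesis -0.32.

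The machinery of translation and respiration was less uniform. The 72 cytosolic ribosomal protein genes had an offset of -0.03, and as the most abundant genes of the cell lay 0.35 above their decile medians. The lowest were the paralogs *Rpl39l* (-1.02), *Rpl7l1* (-0.98) and *Rpl22l1* (-0.60), and *Rpl27* was at -0.48. The 66 mitochondrial ribosomal protein genes had an offset of -0.39, or -0.24 against the decile medians. Of these, 3 were at least 2-fold lower (4.55%, against 3.41% of all members), led by *Mrps12* (36.1 and 13.2 FPKM, -1.38) and *Mrpl12* (106 and 47.3, -1.14), with *Mrpl34* at -0.98. Ribosomal protein genes have many processed copies, so their values are uncertain where reads were split. The 71 genes of oxidative phosphorylation had an offset of -0.29, which turned to 0.017 against the decile medians. *Cox6a2* (0.271 and 3.80 FPKM, 1.92) and *Cox6b2* (81.5 and 181, 1.14), tissue-specific subunits of cytochrome c oxidase, were the genes of this list past 2-fold (2.82%, against 4.12% of all members). *Ndufb10* (-0.93) and *Cox7c* (-0.91) lay lowest. Glycolysis had an offset of -0.37, or -0.10 against the decile medians, and no gene past 2-fold. *Gapdh* was at 1170.4 and 703 FPKM (-0.73), *Pgam1* at 349 and 176 (-0.98), *Tpi1* at 105 and 55.1 (-0.92), *Pkm* at 174 and 92.2 (-0.91) and *Ldha* at 449.7 and 248 (-0.86). *Ldhb* was at 55.7 and 93.3 FPKM (0.73). The hypoxia factor HIF is degraded through prolyl hydroxylases that also use iron and 2-oxoglutarate. Of 18 expressed HIF targets outside glycolysis, 4 were at least 2-fold higher (22.2%, against 4.12% of all members) and none lower by that much. The 4 were *Ddit4* (also an ATF4 and CHOP effector), the collagen lysyl hydroxylase gene *Plod2* (12.3 and 37.7 FPKM, 1.55), the growth factor gene *Vegfa* (3.59 and 12.3, 1.53) and the prolyl hydroxylase gene *P4ha1* (2.81 and 7.03, 1.07). The median of this list was -0.06, with 10 ratios below 0, and *Pdk1* was at 25.7 and 15.2 FPKM (-0.72). Cholesterol synthesis had an offset of -0.25, or -0.17 against the decile medians, with *Fdps* at 74.7 and 34.1 FPKM (-1.11) and *Ebp* at 69.6 and 32.3 (-1.08). *Slc23a2*, the ascorbate transporter SVCT2, was at 11.5 and 13.6 FPKM (0.22). *Abcb1b*, a multidrug efflux transporter, was at 7.96 and 42.2 FPKM (2.27), while *Abca1*, *Abcc5* and *Abcg2* were at 0.74, 0.29 and -0.52.

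Several of the remaining genes with the largest ratios were weakly expressed. *Apod* (listed at 7.83e-05 FPKM in AA+DMSO and at 7.45 with GSK-J4), *Stbd1* (listed at 0 and at 5.54), *Smox*, the spermine oxidase gene (0.166 and 7.79), *Them5* (0.641 and 8.74) and *Sytl1* (0.798 and 8.69) were below 1 FPKM in AA+DMSO, and *Pm20d1* was at 1.34 and 14.6 FPKM. On the lower side, *Igsf9* (4.46 and 0.00587 FPKM), *Ept1* (3.57 and 0.00853), *Fam179b* (4.39 and 0.160) and *Smc5* (3.73 and 0.289) were near 0 with GSK-J4. Without AA *Ept1* was at 0.928 FPKM and listed at 0 with GSK-J4, whereas the ratios of the other 3 were -0.45, -0.09 and -0.02. Of the genes that reached 10 FPKM in both libraries, *1700007K13Rik* (17.6 and 68.8 FPKM, 1.90) and *Rtkn* (18.4 and 65.3, 1.77) were among the 10 highest at this level. The lowest included the splicing factor genes *Srsf2* (93.2 and 27.8 FPKM, -1.71) and *Snrpa1* (105 and 37.0, -1.49), the cytoplasmic actin gene *Actg1* (998 and 341, -1.54), *Basp1* (59.0 and 18.8, -1.60), *Fam169a* (44.5 and 14.2, -1.59) and *Anp32a* (67.7 and 22.8, -1.53). A splicing factor of lower level, *Hnrnpdl*, was at 21.1 and 5.28 FPKM (-1.81), and the secreted protein gene *Fam3c* at 10.5 and 2.36 (-1.77, but -0.31 without AA).

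GSK-J4 was also added without AA, and the 2 comparisons share no library. In PBS+GSK-J4 against PBS+DMSO, 461 of 9256 genes (4.98%) passed 2-fold upward and 330 (3.57%) downward, with a median of -0.17. Of the 379 genes higher with AA, 377 had a value without AA, of which 283 were at least 2-fold higher there too and 356 had a ratio above 0. Of the 313 lower genes, 309 had a value, 165 were at least 2-fold lower and 288 had a ratio below 0. Among genes that reached 10 FPKM in both libraries with AA, 37 of 43 higher genes and 99 of 122 lower genes with a value passed 2-fold without AA. The leading genes had like values in both. *Nupr1* was at 2.81 and 46.9 FPKM without AA (log2 ratio 3.65), *Ddit4* at 29.4 and 279.8 (3.21), *Ddit3* at 6.64 and 63.7 (3.08) and *Mt1* at 228 and 1099 (2.26). *Cdkn1a* was at 24.5 and 80.5 FPKM (1.67), *Eras* at 87.7 and 22.2 (-1.93) and *Dnmt3b* at 48.2 and 10.9 (-2.05). Without AA 11 of 16 ATF4 and CHOP effectors and 9 of 19 p53 targets were at least 2-fold higher. The offsets of these lists were 1.78 and 1.16 without AA, against 1.54 and 1.18 with it, and those of the naive genes -0.58 and -0.51. Whether the responses with and without AA differ was not tested, since neither has a replicate.

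**Figure D5:**
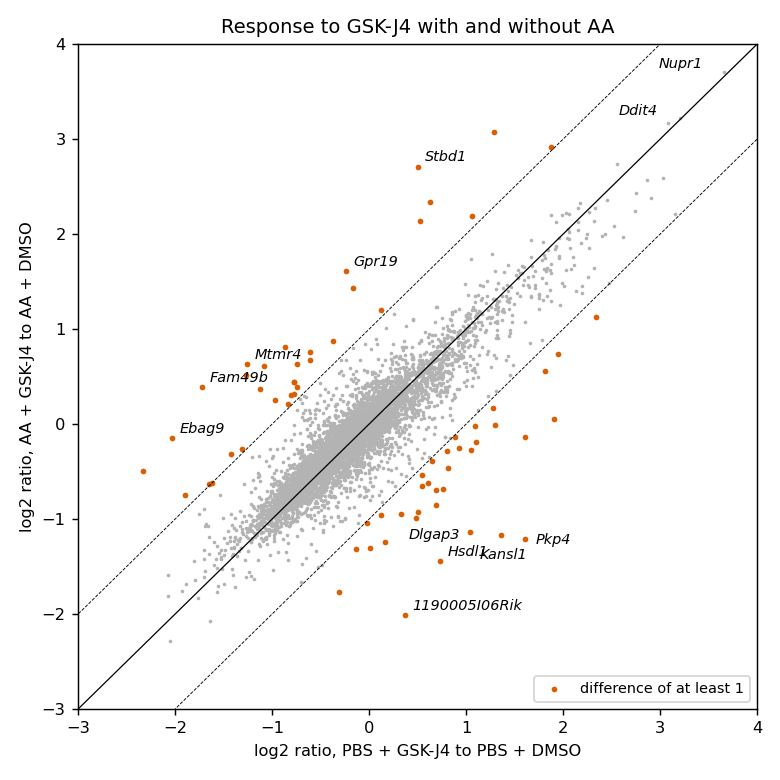
Log2 ratio of GSK-J4 to DMSO without AA (horizontal) and with AA (vertical), 1 point a gene that reached 5 FPKM in any of the 4 libraries. The solid line marks equal ratios, and orange points lie at least 1 apart (dashed lines), 68 of 6561 genes.

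Over the 6561 genes that reached 5 FPKM in any library and had a value in both comparisons, the ratio with AA less that without AA had a median of 0.04 and a standard deviation over genes of 0.26. For 94.9% of them it lay within 0.5 of 0. It was at least 1 for 33 genes and at most -1 for 35. Only 2 of the 3807 genes with at least 10 FPKM in all 4 libraries were among these. *Stard3nl* had a ratio of 0.67 with AA (15.8 and 25.7 FPKM) and -0.62 without (24.7 and 15.8), and *Nsfl1c* of -0.75 (64.1 and 37.7 FPKM) and -1.90 (101 and 26.4). Both were chosen after their values were seen. The largest differences upward belonged to *Stbd1* (2.21), *Fam49b* (2.11), *Mtmr4* (1.89), *Ebag9* (1.88) and *Gpr19* (1.85). *Fam49b* was at 6.67 and 9.02 FPKM with AA and 9.37 and 2.14 without, and *Gpr19* at 1.21 and 5.72 with AA and 4.11 and 3.32 without. The largest differences downward belonged to *Pkp4*, *Kansl1*, *1190005I06Rik*, *Hsdl1* and *Dlgap3*. *Pkp4* was at 15.4 and 6.07 FPKM with AA and 2.11 and 8.47 without, so the library with DMSO and AA was the highest of the 4 and that with DMSO alone the lowest. *1190005I06Rik* was at 14.7 and 2.87 FPKM with AA and 8.0 and 10.6 without. *Hsdl1* was at 5.95 and 1.55 FPKM with AA and 1.74 and 3.55 without. In none of these 10 genes did all 4 libraries reach 10 FPKM. *Nodal* had ratios of 0.90 with AA and 1.30 without, *Tdgf1* of -1.01 and -0.78, and the p53 target *Zmat3* of 1.03 and 0.38.

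The promoters of all members were searched for the same letters, both strands counted. TGATGNAAN was found in 18 of the 299 at least 2-fold higher genes with a promoter (6.02%, Wilson 95% interval 3.84 to 9.31), in 3 of 238 lower genes (1.26%, 0.430 to 3.64) and in 2.36% of all members. The letters occur in 3.95% of all 32851 promoters in the table. The 7 matching ATF4 and CHOP effectors are all among these 18. Without the effectors of this list the letters were found in 11 of 288 higher genes (3.82%, 2.15 to 6.71). This interval holds both the 2.36% of all members and the 3.95% of all promoters. Among the higher genes that reached 10 FPKM in both libraries they were found in 1 of 36 (2.78%). The intervals cover counting error over genes only. TGACGTCA, the cAMP response element, was found in 3.01% of the higher, 1.26% of the lower and 3.71% of all members with a promoter, and in 1.79% of all promoters. TGACNNNGC, the core of the antioxidant response element that NRF2 binds, was found in 15.7%, 13.0% and 17.4%, and in 12.4% of all promoters. Matches to different motifs may overlap. Promoter composition went with the ratio as well. Of 1494 genes whose promoter had an observed to expected CpG ratio below 0.6, 8.70% passed 2-fold upward and 4.48% downward, with a median log2 ratio of -0.04. Of 5575 genes with a ratio of at least 0.6, 3.03% and 3.07% were, with a median of -0.18. The genes with fewer CpG were less expressed, with a median mean FPKM of 5.48 against 10.4, and against the decile medians the classes lay at 0.04 and -0.01.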

How the data were processed

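RNA was sequenced from 4 conditions of LF2 ESCs, with 1 library each, assigned from the sample titles. Per the study's methods the authors removed duplicates from single-end reads and ran TopHat2 and Cufflinks2, and mm10 and TopHat2 are named in the submitters' processing notes. The authors deposited FPKM for each coding sequence group in 2 tables, 1 with AA and 1 without, under headers that name log10 values, but the values are linear. The scaling between libraries is not given in the sources used here. Removal of duplicates can lower the values of abundant genes. The tables also hold the authors' fold changes, test statistics, p-values and q-values, which were not used.

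FPKM was summed over the 11033 coding sequence groups per gene name. Genes with a failed group (126 groups in the table with AA) were left out, as were genes without a value in a comparison. Log2 ratios used a pseudocount of 1 and genes that reached 1 FPKM in either library. A gene was counted as higher or lower past 2-fold on this ratio, not on plain FPKM. Deciles are of the mean FPKM of both libraries. Scripts ran in Python 3.11.15 with pandas 2.3.3, numpy 2.4.6, matplotlib 3.10.9 and scipy 1.17.1, and the call rule was tested on simulated data. Coordinates of genes are the tables' loci. Promoters are from RefSeq (GRCm38.p6), the same assembly as mm10, and 7069 members matched by symbol. For CpG, the first listed promoter of a gene was used. A further 17 gene names had become calendar dates and were kept as listed.

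The members and 42 gene lists were chosen with earlier results of these data known. The genes named are the 10 with the largest ratio in each direction, overall and among genes with at least 10 FPKM in both libraries, each gene the study names, up to 4 per list with the largest ratios plus up to 2 its role turns on, and the 5 with the largest difference between comparisons in each direction. Further genes of a list, and the genes of 4 added lists, were picked with their values in view. Another named gene, *Smarca4*, has a failed estimate. 1 gene that the study names, and *Xist* and *Tsix*, are not reported here. Alternatives were pseudocounts of 0.1 and 5, filters on FPKM, scalings, centring, thresholds of 1.5-fold and 4-fold, 1 value per coding sequence group and failed estimates kept.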

Additional observations from a re-analysis of the deposited data

Results flagged for a closer look

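For 3 genes, GSK-J4 went with a ratio past 2-fold in opposite directions with and without AA, and the difference was not tested. *Pkp4*, which encodes a plakophilin of cell junctions, had log2 ratios of -1.21 with AA and 1.61 without, a difference of -2.82. *Kansl1*, a subunit of the NSL histone acetyltransferase complex, had ratios of -1.17 and 1.36, a difference of -2.53, with 5.71 and 1.97 FPKM with AA and 1.15 and 4.53 without. *Dlgap3*, a postsynaptic scaffold gene, had ratios of -1.14 and 1.04, a difference of -2.18, with 5.12 and 1.78 FPKM with AA and 0.558 and 2.20 without. In each, the FPKM values with GSK-J4 lay between those of the 2 libraries with DMSO.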

How the results depend on the processing

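With 379 higher and 313 lower genes as reported, a pseudocount of 0.1 gave 668 and 497 and a pseudocount of 5 gave 99 and 102. Thresholds of 1.5-fold and 4-fold gave 931 and 1633, and 38 and 6. Requiring 5 FPKM in either library left 207 higher and 232 lower genes, and at least 1 in both left 221 and 255. Scaling to the same total gave 621 higher and 99 lower genes, and division by the upper quartile 120 lower genes. Centring on the median of all members gave 154 lower genes, and centring on the decile median 207. The median ratio of all members, -0.16, turned to 0.066 under the upper quartile and to 0.14 under the same total. The 68 genes that differed by at least 1 between comparisons became 110 and 10 with pseudocounts of 0.1 and 5, 240 with no filter and 42 where both comparisons had a library of 5 FPKM or more. Leaving out genes that failed in either table, an alternative added after the data were seen, gave 377 and 309 genes. Over the 42 lists, 352 of 419 alternative offsets lay within 0.1 of the reported one. Where the reported offset was at least 0.1 in size, 7 alternatives changed sign. These were 2-cell-like genes (-0.63 with an FPKM of at least 5), neural genes (-0.26 without a filter, -0.37 with an FPKM of at least 5 and -0.30 with at least 1 in both), and, against the decile medians, primitive endoderm (-0.073), oxidative phosphorylation (0.017) and Zfp genes (-0.024). Sign changes of smaller offsets were not counted, such as that of the cytosolic ribosomal proteins, from -0.03 to 0.35 against the decile medians. Of 1449 alternative values of named genes, 181 crossed the 2-fold threshold, and no gene past it changed sign. Without the ATF4 and CHOP effectors, left out after the data were seen, the share of higher genes with TGATGNAAN was 3.82%. The motif shares stayed within their intervals with an FPKM of at least 5 and a threshold of 1.5-fold. With no replicates and unknown depth, the precision of a single gene's ratio is not known, and values near 0 FPKM limit the ratios of weak genes most.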

Other observations

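The following groups were chosen after their values were seen, so their values are descriptions only. All 46 expressed genes named as SR splicing factors, small nuclear ribonucleoproteins or hnRNPs lay below the median of all members, with a median log2 ratio of -0.83. Of them, 11 were at least 2-fold lower (23.9%, against 3.41% of all members). Against the decile medians the list lay at -0.34. *Snrnp70*, a subunit of the U1 particle, was at 108 and 39.5 FPKM (-1.43), and the highest ratio of the list was -0.28 in *Hnrnph3*. Translation initiation factors, 41 of them expressed, had a median of -0.55 and none past 2-fold, and lay at -0.035 against the decile medians. The helicase gene *Eif4a1* was at 1159 and 595 FPKM (-0.96) and *Eif1* at 396 and 490.1 (0.31).

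Of 11 histocompatibility and antigen processing genes, 3 were at least 2-fold higher (27.3%, against 4.12% of all members) and none lower by that much. The list had a median log2 ratio of 0.62, with 8 ratios above 0 and 3 below, the lowest at -0.95. Its summed FPKM was 109 in AA+DMSO and 116 with GSK-J4. The peptide transporter gene *Tap1* was at 1.66 FPKM in AA+DMSO against 11.6 with GSK-J4 (2.24), *H2-Eb1* at 1.61 and 7.35 (1.67) and *B2m*, the light chain of class I molecules, at 15.3 and 33.6 (1.09). *Tap1* and *Psmb9* share a locus in the table, and reads there may be split between them. Without AA, 4 of 11 genes of this list were at least 2-fold higher, against 4.98% of all genes there. Of 153 solute carrier genes, 8 were at least 2-fold higher (5.23%) and 6 lower (3.92%), near the 4.12% and 3.41% of all members, with a median of 0.02, and *Slc4a11* was at 7.81 and 33.5 FPKM (1.97).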
